A study of Homo sapiens with 9 samples.

Results

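The genes described here were 9 MAGE-A cancer-testis antigens, *MAGEA1*, *MAGEA3*, *MAGEA4*, *MAGEA6*, *MAGEA8*, *MAGEA9*, *MAGEA10*, *MAGEA11* and *MAGEA12*, of the 19984 protein-coding genes measured. They were taken by symbol, and *MAGEA4* was chosen by its steep fall in both *EPCART*-del clones. Its difference from the wild-type (WT) clone is therefore given as a description with no test, and the other 8 genes were examined to see whether they followed it. None of the 8 came near its drop, though del-4 held 7 of them below WT and del-56 held 6, mostly by little and with no call. Of all tested genes, 8793 of 17401 lay below WT in del-4 and 8765 of 17481 in del-56. The 8 include *MAGEA9* and *MAGEA11*, whose reads were few. *MAGEA4* was 146-fold lower in del-4 and 539-fold lower in del-56, *MAGEA10* rose in del-4 and fell in del-56, *MAGEA1* fell in del-4 with no call in del-56, and the abundant *MAGEA3*, *MAGEA6* and *MAGEA12* were within 0.1 of WT on the log2 scale, with no call by limma at the deposited scaling.

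RNA-seq was performed on LNCaP cells, a line from a prostate cancer metastasis, after 48 h of culture in serum-containing medium. The 3 groups were del-4 and del-56, called *EPCART*-del clones, in which CRISPR-Cas9 had removed the promoter and exons 1 and 2 of the lncRNA gene *EPCART*, and a WT clone, with 3 cultures and 1 library of each. Every group was a single clone, so the deletion and other differences between clones cannot be told apart, and both *EPCART*-del clones were set against the same 3 WT libraries. The reads on genes ranged from 91074556 to 118877134 per library, and *EPCART* itself is not a protein-coding gene and was not analysed here, which leaves its loss without a check. P-values below measure the spread between cultures of a clone. In bulk RNA, fewer expressing cells and less RNA per cell cannot be told apart.

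MAGE-A genes lie in clusters on the long arm of chromosome X. In healthy adults they are expressed mainly in male germ cells and are kept silent elsewhere by methylation of their promoters, and many tumours express them again, which makes their peptides targets of T cells. The proteins share a MAGE homology domain and act mostly as partners of RING-type E3 ubiquitin ligases, changing what these ligases bind. The domain is coded by a single exon, and the genes arose by duplication, so reads of the closest members can be hard to assign.

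On GRCh38 the members occupied 3 stretches of chromosome X. *MAGEA11*, *MAGEA9* and *MAGEA8* started 2224, 2131 and 2031 kb nearer to the start of the chromosome than *MAGEA4*, and the other members lay after it. *MAGEA10* started 221 kb, *MAGEA3* 786 kb, *MAGEA12* 821 kb, *MAGEA6* 854 kb and *MAGEA1* 1267 kb after *MAGEA4*. *MAGEA4* itself (ENSG00000147381.12, plus strand) runs from chrX:151912495-151925171 in GENCODE 44, and the antisense gene *MAGEA4-AS1* overlaps 1474 bases of it on the opposite strand. The libraries were strand-specific, and whether strand was used in counting is not given in the sources used here.

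RefSeq promoter windows, from 250 bases before to 50 bases after a transcription start, were matched for 7 of the 9 members, all but *MAGEA1* and *MAGEA10*, and gave 12 windows, 5 of them from *MAGEA4*. Windows of 3 genes are printed 5′ to 3′ on the gene's strand, from GRCh38.p14, because they set the member with the steep fall beside close relatives that were not called. They are *MAGEA4* at its first start (chrX:151912224-151912523, plus strand), *MAGEA3* (chrX:152698544-152698843, plus strand) and *MAGEA8* (chrX:149880933-149881232, plus strand). Capitals mark the hexamers CCGGAA and CCGGAT, forms of the core that ETS-family factors bind, on either strand.
MAGEA4: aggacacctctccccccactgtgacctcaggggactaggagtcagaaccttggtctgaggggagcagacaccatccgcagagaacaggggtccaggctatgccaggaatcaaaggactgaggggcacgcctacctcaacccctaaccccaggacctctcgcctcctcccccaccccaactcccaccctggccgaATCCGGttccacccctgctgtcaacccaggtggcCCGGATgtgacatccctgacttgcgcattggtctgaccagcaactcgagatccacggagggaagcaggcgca
MAGEA3: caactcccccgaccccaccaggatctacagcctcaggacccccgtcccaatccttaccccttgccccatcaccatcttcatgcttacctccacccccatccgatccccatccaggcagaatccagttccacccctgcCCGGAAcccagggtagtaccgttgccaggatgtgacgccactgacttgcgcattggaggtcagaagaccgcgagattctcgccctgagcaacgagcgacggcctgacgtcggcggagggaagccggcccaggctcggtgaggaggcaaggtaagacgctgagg
MAGEA8: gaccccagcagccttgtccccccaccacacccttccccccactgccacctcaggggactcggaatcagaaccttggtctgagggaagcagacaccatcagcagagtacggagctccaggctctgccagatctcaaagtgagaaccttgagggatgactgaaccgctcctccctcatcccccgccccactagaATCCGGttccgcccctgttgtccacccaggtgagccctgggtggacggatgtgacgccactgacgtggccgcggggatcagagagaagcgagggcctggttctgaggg

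The hexamers were chosen after the sequences had been read. All 12 member windows held CCGGAA or CCGGAT on some strand, against 22.1% of the 35116 RefSeq promoter windows, and matches on both strands can overlap. The *MAGEA4* window printed above held 2 such hexamers, and each of the other 11 windows held 1. The *MAGEA6* window equals that of *MAGEA3* at all 300 bases. The longest run of bases that the *MAGEA4* window shares with the *MAGEA3* window is ctgacttgcgcattgg, which occurs in 12 of all promoter windows, those of *MAGEA4* (4 windows), *MAGEA2* (2), *MAGEA2B*, *MAGEA3*, *MAGEA6*, *CSAG3* and the divergent transcripts *MAGEA3-DT* and *MAGEA6-DT*. Member windows held 9 to 21 CpG dinucleotides, beside a median of 14 over all windows. The genes with these shared letters include both the member that was far below WT and members that were not called, and methylation was not measured here.

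Levels are normalized counts (reads divided by the size factor of the library), and between genes they are compared per kilobase of exon. In the WT clone *MAGEA3* stood highest, at 10427 ± 181 normalized counts per kilobase (SD, n = 3), above 97.7% of all genes. *MAGEA6* followed at 7692 ± 261, *MAGEA4* at 3722 ± 89.2, *MAGEA12* at 3206 ± 137 and *MAGEA10* at 2133 ± 60.3 per kilobase. *MAGEA1* was intermediate at 487 ± 62.4 per kilobase. These 6 genes had many reads, but *MAGEA3* and *MAGEA6* share sequence, so their levels carry the caution on shared reads given below. *MAGEA8* (31.4 ± 10.1 per kilobase), *MAGEA11* (5.16 ± 4.18) and *MAGEA9* (1.06 ± 1.84) were low, and the last pair could not be ordered within their SDs.

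In both *EPCART*-del clones *MAGEA4* lost its place in the order, and in del-4 *MAGEA10* also passed *MAGEA12*. *MAGEA4* passed from the third place in WT to the seventh in both clones, at 26.0 ± 7.48 normalized counts per kilobase in del-4 and 6.74 ± 1.70 in del-56, which took it from above 92.4% of all genes to above 35.0% and 28.1%. In del-4 it could not be told from *MAGEA8*, at 26.1 ± 7.60 per kilobase. *MAGEA10* moved up to the third place in del-4 (3206 ± 73.3 per kilobase, beside 2999 ± 48.0 for *MAGEA12*), and in del-56 it took the fourth place at 1036 ± 75.2. Summed over all 9 members, normalized counts ran from 58019 to 59230 in WT, from 46070 to 47386 in del-4 and from 40262 to 41988 in del-56. Without *MAGEA4* the sums were 45778 to 46388 in WT, 46011 to 47277 in del-4 and 40241 to 41959 in del-56, so WT and del-4 overlapped and del-56 lay below both.

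**Figure D1:**
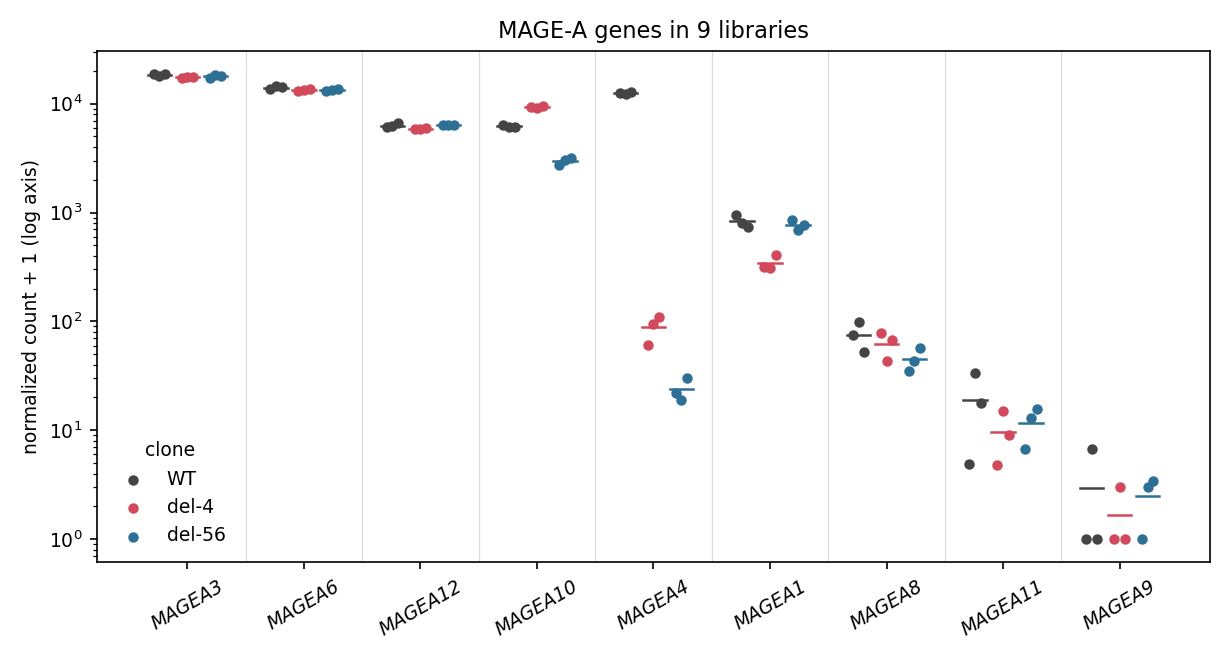
Normalized count plus 1 (log axis) of the 9 MAGE-A genes in each library, with a bar at the mean of each clone (n = 3). The WT libraries hold *MAGEA4* at 12240 to 12842 normalized counts, the del-4 libraries at 59.5 to 108 and the del-56 libraries at 18.1 to 29.1. *MAGEA3*, *MAGEA6* and *MAGEA12* each keep a similar level of their own over all 9 libraries.

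*MAGEA4*, a member found in germ cells and in many carcinomas, had 12546, 12240 and 12842 normalized counts in the 3 WT cultures. In del-4 it had 59.5, 94.6 and 108, and in del-56 it had 21.0, 18.1 and 29.1. Every *EPCART*-del library lay below every WT library, and every del-56 library lay below every del-4 library. On the scale of log2 of the normalized count plus 1, on which all fold changes here are given, *MAGEA4* was 7.19 lower in del-4 than in WT (SE 0.14, 146-fold) and 9.07 lower in del-56 (SE 0.14, 539-fold), the value by which it was chosen. It held the third lowest change of 17401 genes in del-4 and the fifth lowest of 17481 in del-56. The transcript remained above the floor of 3 reads in all 6 *EPCART*-del libraries. The residual level differed between the *EPCART*-del clones, a comparison that did not choose the gene, and was 3.69-fold higher in del-4 (log2 difference 1.88, SE 0.34, limma adjusted p = 6.07e-04). No window of 150 bases, the read length, in the *MAGEA4* transcripts occurs in transcripts of another gene.

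*MAGEA10*, an antigen targeted with engineered T cells, moved in opposite directions. It had 6382, 6049 and 6123 normalized counts in WT, 9341, 9063 and 9481 in the del-4 clone and 2759, 3071 and 3179 in the del-56 clone. All del-4 libraries were above and all del-56 libraries were below the WT range. It rose 1.50-fold in del-4 (log2 fold change 0.59, SE 0.038, limma adjusted p = 1.07e-09) and fell 2.06-fold in del-56 (log2 fold change -1.04, SE 0.053, limma adjusted p = 3.78e-10). Set against each other, del-4 held 3.10 times the level of del-56 (log2 difference 1.63, SE 0.051, limma adjusted p = 1.51e-13). *MAGEA10* (ENSG00000124260.12, chrX:152133310-152138578, minus strand) shares 9.94% of its windows of 150 bases with a long noncoding gene annotated over the same locus and strand, and with no other gene.

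*MAGEA1* (ENSG00000198681.7, chrX:153179284-153183880, plus strand), the first antigen of the family to be cloned, fell in del-4. It had 951, 805 and 743 normalized counts in WT, 316, 306 and 407 in the del-4 clone and 847, 692 and 760 in the del-56 clone. The del-4 libraries lay below all others, and the del-56 and WT ranges overlapped. It was 2.43-fold lower in del-4 than in WT (log2 fold change -1.28, SE 0.13, limma adjusted p = 2.37e-07). In del-56 the log2 fold change was -0.12, with a 95% interval from -0.34 to 0.11 (limma adjusted p = 0.42). Del-4 also held less *MAGEA1* than del-56 did (log2 difference -1.17, SE 0.13, limma adjusted p = 2.67e-06), and none of its windows of 150 bases occurs in another gene.

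*MAGEA3*, *MAGEA12* and *MAGEA6* follow each other along the chromosome. *MAGEA3* and *MAGEA6* are near-identical antigens that bind the ligase TRIM28, and their values need caution because 27.8% of the *MAGEA3* windows and 26.5% of the *MAGEA6* windows of 150 bases occur in the other gene. Reads from those windows cannot be placed by sequence, and how the counting treated them is not given in the sources used here. Some copies had equal reads, as *CTAG1A* and *CTAG1B* did in 9 of 9 libraries, so a read may have been counted for each gene it matches. This was not tested. The values of *MAGEA3* and *MAGEA6* may therefore not be independent, and sums over members may count shared reads more than 1 time. The deposited values were not copies of each other, since they differed by 22.5% to 32.2% in the 9 libraries. *MAGEA12* shares 0.950% of its windows with *MAGEA2* and *MAGEA2B*, and the noncoding gene *CSAG4* overlaps 3843 bases of it on the same strand.

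*MAGEA3* had 18753, 18130 and 18581 normalized counts in WT, 17201, 17581 and 17615 in the del-4 clone and 17237, 18310 and 18013 in the del-56 clone. The fold change on the log2 scale was -0.08 in del-4 (95% interval -0.15 to -0.01, limma adjusted p = 0.060) and -0.05 in del-56 (-0.13 to 0.03, limma adjusted p = 0.31). All del-4 libraries lay below the WT range by a small margin, and the del-56 libraries overlapped it. *MAGEA6* ran from 13551 to 14458 in WT, from 13209 to 13703 in del-4 and from 13011 to 13587 in del-56, with log2 fold changes of -0.06 (limma adjusted p = 0.17) and -0.09 (limma adjusted p = 0.088). *MAGEA12* ran from 6098 to 6605 in WT, from 5816 to 5998 in del-4 and from 6346 to 6402 in del-56, with log2 fold changes of -0.10 (limma adjusted p = 0.072) and 0.02 (limma adjusted p = 0.81). These 3 genes passed no limma test at the deposited scaling with all libraries, and the 6 intervals against WT all lay between -0.18 and 0.10. With every library rescaled to the same total, which moves the median of all genes in del-4 to -0.07, all 3 were called lower in del-4, at -0.15 for *MAGEA3*, -0.13 for *MAGEA6* and -0.17 for *MAGEA12*, and *MAGEA6* was called lower in del-56 as well, at -0.11 (limma adjusted p = 0.032). At the deposited scaling but without WT replicate 1, *MAGEA6* and *MAGEA12* were called lower in del-4 (-0.09 and -0.12, limma adjusted p = 0.046 and 0.038) and *MAGEA6* in del-56 (-0.11, limma adjusted p = 0.032). *MAGEA3* was called lower in del-4 after quantile normalization (-0.12, limma adjusted p = 0.0096) and by DESeq2 on the recovered reads (-0.08, DESeq2 adjusted p = 0.039). Scaling, test and 1 WT library each moved these small differences across the threshold.

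The low members gave no call. *MAGEA8* had 73.4, 98.4 and 50.9 normalized counts in WT, 76.8, 41.8 and 66.3 in the del-4 clone and 34.3, 42.2 and 55.8 in the del-56 clone. The ranges overlapped, and the log2 fold change was -0.26 in del-4 (limma adjusted p = 0.55) and -0.72 in del-56 (95% interval -1.39 to -0.04, limma adjusted p = 0.087). Without WT replicate 3, the lowest WT library, it was called in del-56 at -0.96. *MAGEA11* had 3.87, 32.8 and 17.0 normalized counts in WT, 3.84, 13.9 and 8.04 in the del-4 clone and 5.72, 12.0 and 14.6 in the del-56 clone. The WT libraries alone spanned more than the differences between clones (limma adjusted p = 0.45 in the del-4 clone and 0.71 in the del-56 clone), and without WT replicate 2 the log2 fold change in del-56 passed from -0.37 to 0.25. *MAGEA9* had 0, 6 and 0 reads in WT, 0, 2 and 0 in the del-4 clone and 0, 2 and 2 in the del-56 clone. At this depth no difference in *MAGEA9* could be detected, and 86.8% of its windows of 150 bases occur in *MAGEA9B*, with equal reads for both genes in 8 of 9 libraries.

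All 9 members passed the filter on low values, a mean of at least 1 normalized count, in all 3 comparisons. Of the 8 members other than *MAGEA4*, 1 was called lower in del-4 than in WT at a limma adjusted p under 0.05 (*MAGEA1*), where 20.2% of all tested genes were called lower. Likewise 1 was called higher (*MAGEA10*), beside 20.5% of all tested genes. In del-56, 1 of the 8 was called lower (*MAGEA10*), beside 20.5% of all tested genes, and 0 were called higher, beside 19.2%. That count of 0 was the same at an unadjusted limma p under 0.05 and with edgeR and DESeq2. None of these 4 counts at the adjusted threshold, as a share of the 8, exceeded the share of all tested genes. At an unadjusted limma p under 0.05, 3 of the 8 were lower in each clone, beside 23.88% of all tested genes for del-4 and 23.97% for del-56. The median log2 fold change of the 8 was -0.18 in the del-4 clone and -0.10 in the del-56 clone, where that of all tested genes was -0.003 and -0.001.

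Between the *EPCART*-del clones, 1 of the 9 members was lower in del-4 (*MAGEA1*), where 9.0% of all tested genes were called lower, and 2 were higher (*MAGEA4* and *MAGEA10*), where 10.9% were called higher. *MAGEA12* lay below del-56 in all 3 del-4 libraries, with a log2 difference of -0.11 (95% interval -0.19 to -0.03, limma adjusted p = 0.054). The remaining 5 members had overlapping ranges and limma adjusted p-values from 0.37 to 0.78.

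**Figure D2:**
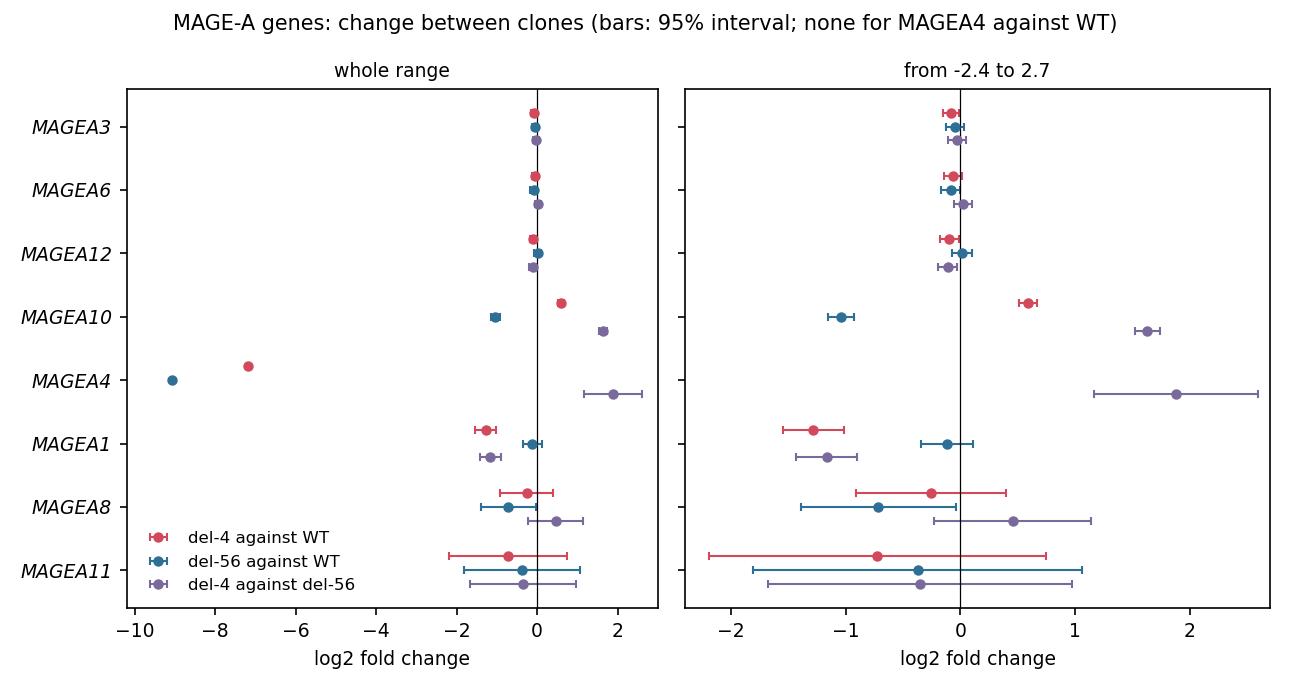
Log2 fold change of 8 MAGE-A genes in del-4 against WT, del-56 against WT and del-4 against del-56, over the whole range (left) and enlarged (right), with 95% intervals from limma on 3 libraries a clone. *MAGEA4* against WT has no interval because it was chosen by these values, -7.19 and -9.07, and *MAGEA9* is left out for its 0 to 6 reads per library. *MAGEA10* lies on opposite sides of 0, at 0.59 in the del-4 clone and -1.04 in the del-56 clone.

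The nearest relatives outside the 9 members differed among themselves. *MAGEA2* and *MAGEA2B*, copies that share 88.0% and 77.9% of their windows and differed by at most 1.18% in any library, lie between *MAGEA3* and *MAGEA6* and had log2 fold changes of -0.04 in the del-4 clone and -0.06 in the del-56 clone each (limma adjusted p from 0.19 to 0.32). *MAGEC1* and *MAGEC2* belong to the same type I class and lie on the same chromosome, nearer to its start than all 9 members. *MAGEC1* had 254, 262 and 250 reads in the WT libraries, 0, 4 and 0 in del-4 and 0 in all del-56 libraries. It fell in both clones. The change in del-4 was -7.17 on the log2 scale (SE 0.56, limma adjusted p = 1.13e-08), a value that 4 reads set and that ran from -7.94 to -5.36 over the alternatives. In del-56 it was at least 77.2-fold lower than in WT, counted against a floor of 3 reads per library. *MAGEC2*, a partner of TRIM28, had 199, 237 and 239 normalized counts in WT, 279, 303 and 239 in the del-4 clone and 1415, 1265 and 1365 in the del-56 clone. It rose 5.98-fold in del-56 (log2 fold change 2.58, SE 0.11, limma adjusted p = 4.16e-11), and its value in del-4 was 0.28 (limma adjusted p = 0.17). This neighbouring pair thus gave a fall in both clones and a rise in del-56.

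The wider family gave calls in both directions. Of 17 other type I MAGE genes, 9 could be tested in del-4 and 10 in del-56. In del-4, 2 were lower (*MAGEC1* and *MAGEB6*) and 0 were higher at a limma adjusted p under 0.05 (median log2 fold change -0.41), and in del-56 1 was lower (*MAGEC1*) and 1 higher (*MAGEC2*), with a median of -0.23. Of all tested genes 20.2% were lower in del-4, as given above, and 20.5% were in del-56. Most genes of this list had few or no reads. Of 12 type II MAGE genes, which most tissues express, 4 of 10 tested were lower in del-4 (*MAGED1*, *MAGED2*, *MAGED4* and *MAGED4B*) and 1 was higher (*MAGEE2*), and 2 of 11 were lower in del-56 (*MAGED1* and *MAGED2*). *MAGED4* and *MAGED4B* share 97.6% and 95.8% of their windows of 150 bases and differed by at most 1.25% in any library, so their 2 calls cannot be told apart from 1. Genes in these brackets that the naming rule does not cover were named after their values were seen.

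Other cancer-testis antigens of chromosome X split in both directions. Of 55 genes on the list, 37 were tested in del-4, of which 6 were called lower and 10 higher (median log2 fold change -0.10). The shares of all tested genes there were 20.2% lower and 20.5% higher. For del-56, 36 were tested, of which 6 were called lower and 6 higher (median -0.15), against shares of 20.5% and 19.2%. Over the list, WT libraries summed to 29877 to 32264 normalized counts, del-4 libraries to 36679 to 38660 and del-56 libraries to 32982 to 35073. Abundant genes that rose included *XAGE1A*, by 0.45 in the del-4 clone and 0.42 in the del-56 clone (limma adjusted p = 2.86e-06 and 5.92e-06). Its copy *XAGE1B* gave 0.45 and 0.42. *GAGE2A* gave 0.69 and 0.16 (limma adjusted p = 7.94e-07 and 0.16). These genes were named after their values were seen. The genes called beyond 2-fold in both clones all fell, while in each clone 2 genes of the list were called higher beyond 2-fold. In del-4 these were *CTAG1A* and *CTAG1B* (log2 fold change 3.13 each, limma adjusted p = 0.0017), which gave -0.20 in del-56 (limma adjusted p = 0.91). Their reads were equal in all 9 libraries, so their 2 calls cannot be told apart from 1. They were named after their values were seen, and the counts above take copies as separate genes. *CTAG2*, which codes for LAGE-1, went from 58.0, 57.9 and 45.2 normalized counts in WT to 3.84, 0 and 2.01 in the del-4 clone and 9.54, 18.1 and 18.2 in the del-56 clone (log2 fold changes -4.48 and -1.79, limma adjusted p = 1.27e-05 and 0.0015), and the del-4 value was -3.83 without del-4 replicate 2. *SSX2* went from a mean of 41.6 ± 17.0 in WT to 5.83 ± 5.76 and 9.38 ± 5.34 (SD, n = 3 each, log2 fold changes -3.19 and -2.09, limma adjusted p = 0.0020 and 0.0033), and its copy *SSX2B* gave -3.10 and -1.89. In del-4 the *SSX2* value was -3.94 without replicate 1 of that clone and -2.11 without its replicate 3, and that of *SSX2B* was -3.79 and -1.97. *GAGE10* gave -1.05 and -1.75 (limma adjusted p = 0.031 and 0.0021), but WT replicate 3 stood at 342 beside 119 and 127 in the other WT libraries, and its call in del-4 was lost without that library (-0.56), without del-4 replicate 1 (-0.93) or without del-4 replicate 3 (-0.75). That call was also lost with no filter (limma adjusted p = 0.057), in 1 fit of all libraries (0.056), with quantile normalization (0.10) and with DESeq2 (0.18). *CSAG1*, *CSAG2* and *CSAG3* are interspersed with *MAGEA12*, *MAGEA2* and *MAGEA2B*. *CSAG2* rose by 0.28 in the del-4 clone and 0.21 in the del-56 clone (limma adjusted p = 0.0014 and 0.014) and *CSAG3* by 0.33 and 0.23 (limma adjusted p = 5.79e-05 and 0.0020), while *CSAG1* gave 0.06 and 0.04 (limma adjusted p = 0.49 and 0.63). *CSAG2* and *CSAG3* share 71.3% and 71.7% of their windows of 150 bases, and the call of *CSAG2* in del-56 was lost without any 1 of 4 libraries, del-56 replicate 2 or 3 (0.19 and 0.18) and WT replicate 2 or 3 (0.20 and 0.17).

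No tested gene within 500000 bases of a member came near the drop of *MAGEA4*. The nearest measured gene before *MAGEA4*, *CNGA2*, a channel subunit of olfactory neurons, had 2 reads in 1 library and 0 in the other 8, too few to show a fall. The nearest after it, *GABRE*, a GABA receptor subunit starting 40629 bases after the *MAGEA4* start, had 20.3, 15.4 and 22.6 normalized counts in WT, 44.2, 71.7 and 58.3 in the del-4 clone and 30.5, 36.1 and 31.5 in the del-56 clone. *GABRE* rose in del-4 (log2 fold change 1.52, SE 0.36, limma adjusted p = 0.0022), and in del-56 it gave 0.73 with no overlap of the groups (limma adjusted p = 0.14). Of 42 other genes within 500000 bases of a member, 3 of 35 tested were called lower in del-4 and 12 higher (median log2 fold change 0.13). All tested genes gave 20.2% lower and 20.5% higher there. In del-56, 5 of 33 were called lower and 5 higher, with a median of 0.02, beside 20.5% and 19.2% of all tested genes. Beyond 2-fold, 1 was called lower there and 1 higher, and the lowest value of a tested neighbour was -2.38. *MAMLD1*, a mastermind-like gene in the gap between the early stretch and *MAGEA4*, was the neighbour called beyond 2-fold in both clones, and it rose from 36.7, 67.6 and 56.6 normalized counts in WT to 234, 305 and 323 in the del-4 clone and 235, 227 and 206 in the del-56 clone (log2 fold changes 2.43 and 2.07, limma adjusted p = 2.31e-07 and 5.02e-06).

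**Figure D3:**
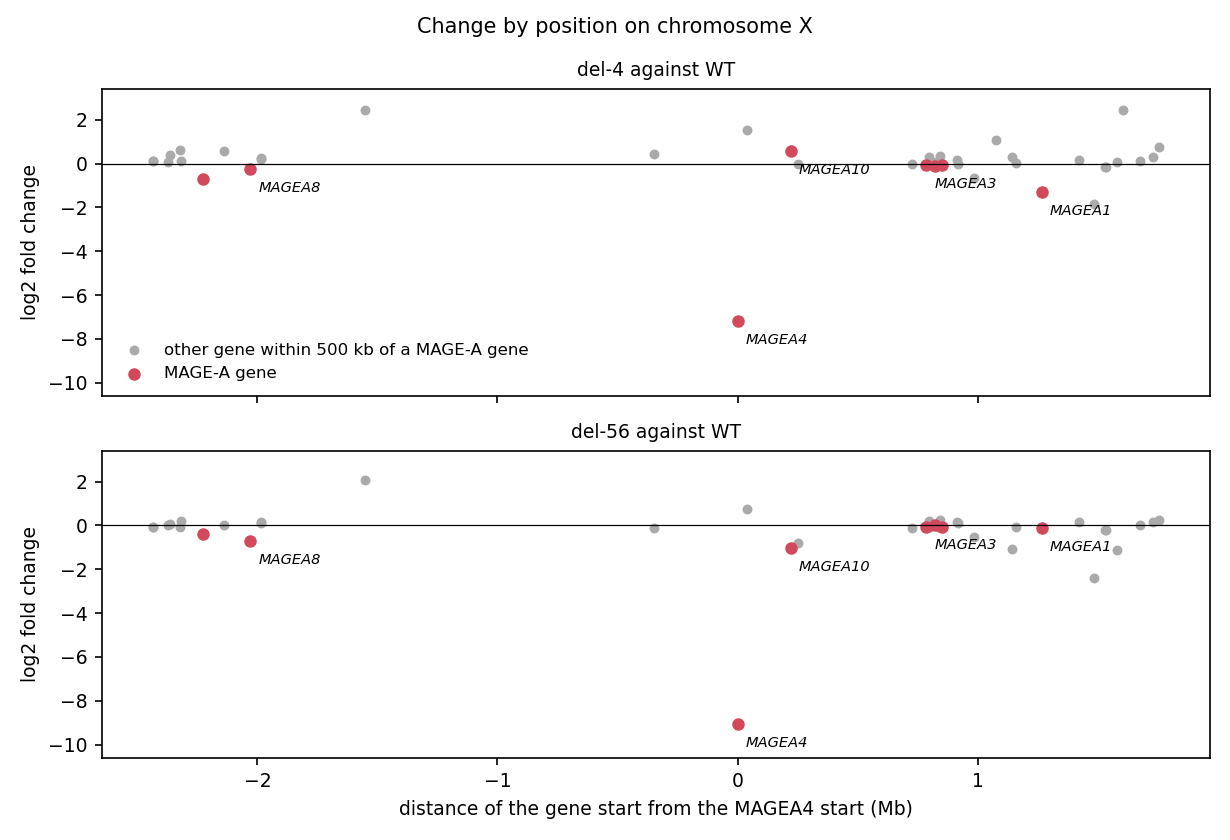
Log2 fold change against WT of MAGE-A genes (red) and other tested genes within 500000 bases of a member (grey), by the distance of the gene start from the *MAGEA4* start in Mb, for del-4 (top) and del-56 (bottom). *MAGEA4* lies at -7.19 and -9.07 while all other plotted genes lie between -2.38 and 2.44. *MAGEA9* and *MAGEA9B* are left out for their low reads.

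Genes for partners of MAGE proteins moved in both directions, more often down. RAD18, a ligase that MAGEA4 binds and stabilises, gave log2 fold changes of 0.04 and -0.02 for its gene (limma adjusted p = 0.50 and 0.78). *TRIM28* gave -0.01 and -0.12 (limma adjusted p = 0.89 and 0.12). *SKP2* fell by 0.15 in the del-4 clone and 0.16 in the del-56 clone (limma adjusted p = 0.0047 and 0.0031). Among 14 partner genes, del-4 gave 6 falls and 2 rises past the test and del-56 gave 6 falls and 1 rise, with medians of -0.04 and -0.14. Beside this, 20.2% of all tested genes fell and 20.5% rose in del-4, and 20.5% fell and 19.2% rose in del-56. *PRKAA1*, a catalytic subunit of the energy sensor AMPK, fell by 0.40 in the del-4 clone and 0.54 in the del-56 clone (limma adjusted p = 2.55e-07 and 3.09e-08). *TRIM31*, a RING ligase gene, was called lower in del-4 on few reads, with 6, 6 and 4 in the WT libraries and 0 in all del-4 libraries (limma adjusted p = 0.039). Both were named after their values were seen.

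Genes for regulators of MAGE promoters moved in both directions in each clone. In del-4, 8 were called lower and 9 higher of 23 tested, beside 20.2% and 20.5% of all tested genes. In del-56, 7 were called lower and 7 higher of 24, beside 20.5% and 19.2%. The maintenance methyltransferase gene *DNMT1* gave -0.05 and -0.01 (limma adjusted p = 0.43 and 0.88). *DNMT3A*, a de novo methyltransferase, rose by 0.39 in del-4 and fell by 0.46 in del-56 (limma adjusted p = 7.35e-06 and 1.67e-05). *ETS1*, a factor of the ETS family, went from 153, 147 and 147 normalized counts in WT to 86.4, 119 and 74.3 in the del-4 clone and 78.2, 82.3 and 34.0 in the del-56 clone (log2 fold changes -0.69 and -1.29, limma adjusted p = 0.017 and 0.0026). *CTCFL*, the germ cell paralog of *CTCF*, had 0 normalized counts in 7 of 9 libraries. These 4 regulators were named after their values were seen, and their part in any MAGE-A level was not tested.

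The genes whose pattern over the 9 libraries was most like that of *MAGEA4* were looked for among 15372 genes, by the root mean square difference of their centred log2 values. The closest were *FCAMR* (0.656), an Fc receptor for IgA and IgM, *S100A7* (0.682), a calcium-binding protein of squamous epithelia, and *CCDC122* (0.730). *MAGEC1* (0.818) and *LACC1* (1.03), a regulator of macrophage metabolism, came next. All were high in WT and near 0 in both *EPCART*-del clones. *FCAMR* had 1401 ± 59.8 normalized counts in WT, 9.87 ± 2.06 in the del-4 clone and 1.62 ± 2.80 in the del-56 clone (SD, n = 3 each). *S100A7* had 406 ± 42.5 in WT, 7.30 ± 5.86 in the del-4 clone and 0 in the del-56 clone. *CCDC122* and *LACC1*, both on chromosome 13, had 174 ± 25.3 and 218 ± 34.1 in WT, 1.33 ± 1.15 and 1.28 ± 2.22 in the del-4 clone and 0 in the del-56 clone. Since these genes were picked for their likeness, the values are a description, and no member of the MAGE-A group was among the 5.

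**Figure D4:**
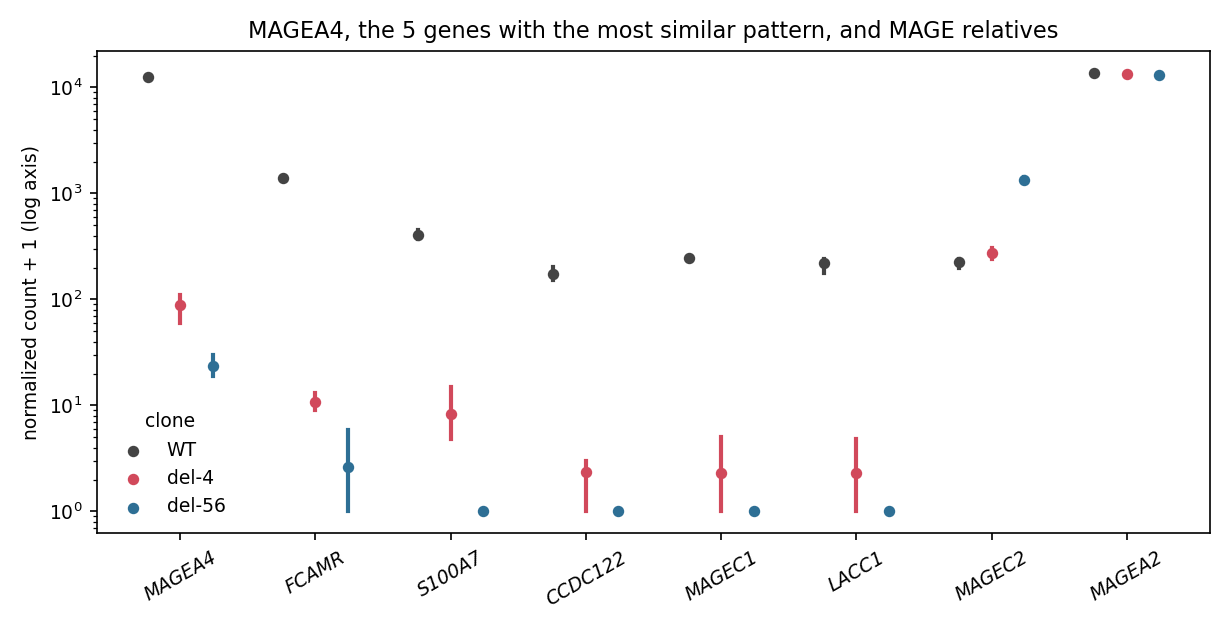
Normalized count plus 1 (log axis) of *MAGEA4*, of the 5 genes with the smallest root mean square log2 difference from it, and of *MAGEC2* and *MAGEA2*, with points at the clone mean and lines from the lowest to the highest library (n = 3). The means of the 5 genes, which were picked for likeness to *MAGEA4*, share the order WT, del-4, del-56. For *MAGEC1*, *CCDC122* and *LACC1* the order of the *EPCART*-del clones rests on few reads, with del-4 means of 1.28 to 1.33 beside 0 in del-56. *MAGEC2* is highest in del-56 at 1348 ± 76.4, and *MAGEA2* is level at 13180 to 13694 in the clone means.

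The labelled cell type was checked by markers. All 9 luminal markers of LNCaP cells were present, with summed normalized counts of 351112 to 371821 in the 9 libraries. Single luminal markers moved in both directions under this sum. In del-4, 5 of the 9 were called lower and 3 higher, with log2 fold changes from -0.71 to 0.41. For del-56, 3 were called lower and 2 higher, with values from -0.62 to 0.66. No luminal marker was called beyond 2-fold in either clone. Of 7 germ cell markers, *TNP1*, *PRM1* and *PRM2* had 0 reads in all 9 libraries. The other listed markers, *DDX4*, *DAZL*, *SYCP1* and *SYCP3*, had reads in del-4 and in WT, and 4 of the 7 had none in del-56. *SYCP3*, which codes for a meiotic chromosome protein, made up most of the sum. *SYCP3* stood at 196 in WT replicate 1, 1435 and 1472 in the other WT libraries and 1806 to 2230 in the *EPCART*-del libraries, opposite in direction to *MAGEA4*. It rose in del-4 (log2 fold change 1.37, limma adjusted p = 0.026) and del-56 (1.45, limma adjusted p = 0.028), but without WT replicate 1 these values were 0.41 and 0.49, both still called. The del-4 call was lost without any 1 del-4 library (1.33 to 1.39) or with no filter, the del-56 call without del-56 replicate 2 or 3 (1.43 and 1.39), and both with quantile normalization (1.39 and 1.49) and with DESeq2 (0.90 and 0.99, DESeq2 adjusted p = 0.39 and 0.34). The 3 basal markers summed to 19.4 to 64.3 normalized counts and the 3 leukocyte markers to 1.89 to 13.4, and *KRT14* carried the basal sum. The leukocyte marker *CD14* rose in del-56 from 3.87, 0 and 0 normalized counts in WT to 13.4, 10.0 and 12.1 (log2 fold change 2.91, limma adjusted p = 0.011), and *CD3E* had 0 in all 9 libraries. The 3 stromal markers summed to 953 to 1060 in WT, 1167 to 1398 in del-4 and 1321 to 1450 in del-56, mostly from *COL1A1* (log2 fold changes 0.33 and 0.34, limma adjusted p = 0.0037 and 0.0018). *LUM*, another stromal marker, rose in del-56 from 15.5, 32.8 and 39.6 in WT to 122, 139 and 127 (log2 fold change 2.20, limma adjusted p = 6.37e-05) and gave 0.90 in del-4 (limma adjusted p = 0.074). Whether these reads came from other cells or from the LNCaP clones themselves was not tested, nor was any link to the MAGE-A values.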

How the data were processed

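RNA-seq libraries of 9 LNCaP cultures (3 clones, 3 cultures each, read length 150 bases) were analysed. The authors trimmed reads with Trim Galore 0.6.5, aligned them to GRCh38 with STAR 2.71a, counted them on protein-coding genes of GENCODE 38 with BEDTools 2.27.1 multicov and divided the counts by 1 DESeq2 size factor per library, so the deposited signal values are normalized counts. All values (100%, tolerance 1e-06 reads) were whole reads times a library step, and 83.8% of values from 1 to 20 reads were even. Of the 19984 identifiers, 19923 were matched to GENCODE 44, which gave symbols, positions and exon lengths.

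Clones were compared pairwise with limma 3.58.1 (R 4.3.3, variance trend) on log2 of the value plus 1, over genes with a mean of at least 1, and called at a Benjamini-Hochberg adjusted p under 0.05 over all genes. The fit was tested on simulated counts, with 1 spread for all genes and changes set only in genes of higher counts. That test does not cover small changes or genes with few reads. Replicate libraries differed beyond counting noise (chi-square per degree of freedom 6.14 to 22.9). Same-numbered libraries of different clones did not deviate together (r from -0.053 to 0.063), so numbers were not used as pairs.

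Named were all members, some close relatives and partners, genes of each list called beyond 2-fold in both clones, the flanking genes of *MAGEA4* and the 5 genes most like it (mean of at least 10). Of these, 1 gene is not reported here. The members and lists were chosen with earlier results of these data known. Alternatives were other pseudocounts (0.5 and 5), filters and scalings, 1 fit of all libraries, a replicate block, edgeR 4.0.16 and DESeq2 1.42.0 on recovered reads, and leaving out each library. Bounds cover counting error only.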

Additional observations from a re-analysis of the deposited data

Results flagged for a closer look

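Members were listed here where their change differed between the *EPCART*-del clones, by the direct test of del-4 against del-56, which is the difference of the 2 changes from the shared WT libraries. *MAGEA10* was 1.63 higher in del-4 than in del-56 on the log2 scale (limma adjusted p = 1.51e-13), with 9063 to 9481 normalized counts against 2759 to 3179 and WT between them at 6049 to 6382. *MAGEA4* was 1.88 higher in del-4 (limma adjusted p = 6.07e-04), with 59.5 to 108 against 18.1 to 29.1 and both far under WT. *MAGEA1* was lower in del-4, by a log2 difference of -1.17 (limma adjusted p = 2.67e-06), with 306 to 407 against 692 to 847. With 3 libraries in each group, single libraries that stand apart were not tested for.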

How the results depend on the processing

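Of 8 members other than *MAGEA4*, 1 was called lower in del-4 than in WT, and the count was 4 with libraries rescaled to the same total, 2 with quantile normalization, 2 with DESeq2 and 1 to 3 when a library was left out, the 3 without WT replicate 1. In del-56 the count of 1 became 2 with the same total and 1 to 2 when a library was left out (2 without WT replicate 1 or 3). In del-4 against del-56 the count of 1 lower member became 2 with a minimum mean of 10, the same total, quantile normalization or DESeq2. The added calls were *MAGEA3*, *MAGEA6*, *MAGEA12* and, once, *MAGEA8*. Counts of members called higher kept their main values under every alternative run. The replicate block gave the same counts throughout (1, 1, 1, 0, 1 and 2). *MAGEA4* ranged from -7.36 to -6.94 in del-4 and from -9.26 to -8.84 in del-56. Over 420 single values of members, 0 called changes reversed and 0 lost their call. Only changes called in the main fits could do either, and these were changes of *MAGEA1*, *MAGEA4* and *MAGEA10*. *MAGEA4* was chosen by its values against WT, so keeping those calls is no support. Rescaling to the same total moves the median of all genes to -0.07 for del-4 and to -0.03 for del-56. The cause of these shifts was not tested. Depth limits *MAGEA9*, *MAGEA11* and *MAGEA8*, whose reads are few.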
